A study of Mus musculus with 4 samples.

Results

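The genes of the constitutive proteasome, its activators and its assembly chaperones were examined in stimulated mouse CD4 T cells with and without the microRNA miR-146a. The members were chosen by gene symbol: every gene whose symbol starts with Psma, Psmb, Psmc, Psmd, Psme, Psmf or Psmg and a digit and that has a probe set carrying this symbol alone, leaving out the immunoproteasome genes Psmb8, Psmb9 and Psmb10. This gave 46 of the 18193 named genes on the array. Of these, 44 encode proteasome subunits, regulators or chaperones. The other 2 match by spelling only, Psmc3ip, a cofactor of meiotic recombination named for binding Psmc3, and Psme3ip1, a protein that binds Psme3; they are counted as members and described apart. Psme2, which encodes the partner of Psme1 in an activator ring, is not a member because no probe set carries its symbol alone.

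The groups were wildtype and miR-146a-deficient cells, with 2 arrays each, and all cells, controls included, carried the 2D2 transgene, a T cell receptor that recognises a peptide of myelin. Naive CD4 T cells had been sorted and cultured for 3 days on plate-bound anti-CD3 at 5 µg/ml with soluble anti-CD28 at 1 µg/ml, and total RNA was hybridised to Affymetrix mouse genome arrays. The labels call the replicates biological but name no mice, ages or sexes, nor how miR-146a was deleted, so the spread behind the p-values may be partly technical. The deficient cells lack the following microRNA, shown so that its seed (bases 2 to 8, in capitals) can be seen; it is transcribed from the minus strand at chr11:43374435-43374456 (RefSeq, GRCm38.p6).

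mmu-miR-146a-5p: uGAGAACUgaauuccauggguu

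The proteasome is the protease that degrades proteins tagged with ubiquitin. Its core particle, the 20S proteasome, is a barrel of alpha rings, which gate the entry, around beta rings, which carry the catalytic sites. The 19S regulatory particle caps the barrel: its ATPases unfold substrates, and its non-ATPase subunits bind ubiquitin chains and remove them. Other activators, the PA28 and PA200 families, can replace the cap, and dedicated chaperones assemble the core and the cap. T cells that divide after stimulation have a high protein turnover, and interferon-gamma is known to induce the immunoproteasome subunits and PA28.

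Values are MAS5 signals, the array's linear intensity per probe set, and a difference is the log2 signal of deficient minus wildtype arrays with its standard error (SE). For each gene the probe set with the highest mean signal was used. Of the 46 members, 45 passed the filter on dim genes. Psmb11, the thymus-specific catalytic subunit, did not pass, with signals of 38.3 and 5.14 in wildtype and 19.4 and 23.1 in deficient arrays. Psma8, the germ cell alpha subunit, passed but was near background at 18.9 and 75.7 against 41.8 and 48.9, and its 95% interval ran from -1.02 to 1.26.

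None of the 45 tested members had an adjusted p under 0.05 in limma, where 0.179% of the 12819 tested genes did. At an unadjusted p below 0.05 there was 1 member, Psmg4, of 45 (2.22%), beside 5.25% of all tested genes. At the adjusted threshold, 0 members were called under every other setting of limma that was run. At the unadjusted one the count was 0 with the mean of probe sets and without deficient replicate 1, 3 without wildtype replicate 2 (Psmc4, Psmg4 and Psma2), and 1 under the others. The differences were small, from -0.26 for Psmc4 to 0.33 for Psmg4, and 43 of the 45 tested members differed by less than 0.2. The 95% interval lay within -0.5 and 0.5, a change of less than 1.41-fold either way, for 42 of the 45, all but Psma8, Psmc4 and Psmg4. Differences larger than this in those 42 genes lie outside their intervals, while smaller ones were not resolved with 2 arrays per genotype.

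**Figure D1:**
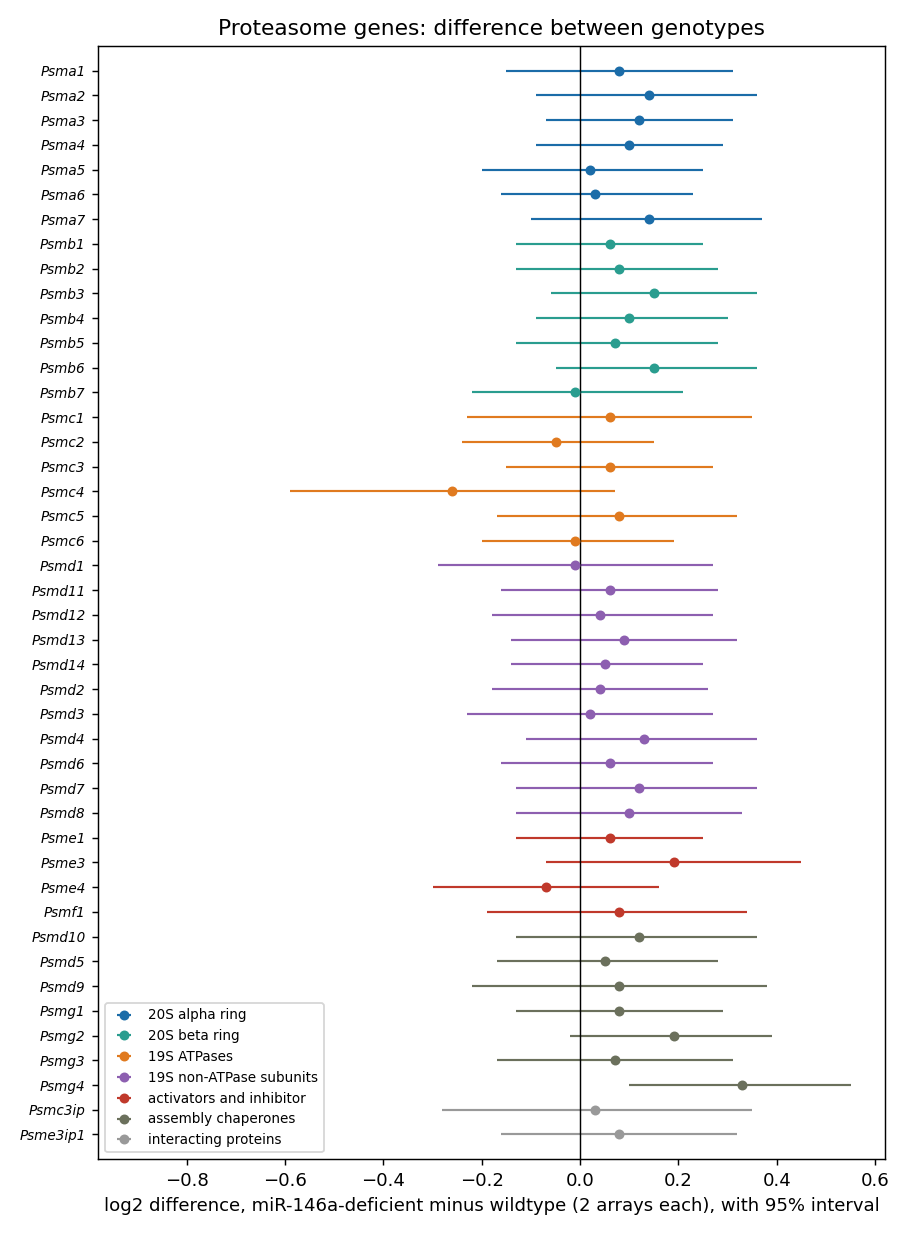
Log2 difference between miR-146a-deficient and wildtype arrays (points) with its 95% interval from limma (lines) for 44 tested members, coloured by role; Psma8, whose interval runs from -1.02 to 1.26, is not drawn. Most points lie slightly to the right of 0, and of the intervals drawn Psmg4's, from 0.10 to 0.55, is the one that does not reach 0.

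Most of these small differences had the same sign. Of the tested members, 39 were above 0 and 6 below, and 86.7% were above 0 beside 47.5% of all tested genes. The median was 0.08, a 1.05-fold difference, beside -0.01 over all tested genes. With each array centred on its median, the split was 44 above and 1 below while 66.0% of all tested genes lay above 0. After quantile normalization 37 tested members were above 0, beside 50.5% of all tested genes, and the median of tested members was 0.05. Both deficient arrays were above both wildtype arrays in 13 members (28.9%), beside 15.9% of tested genes, and below both in 0, beside 17.7%. Nearly all members are bright, while the tested genes include many dim ones. No share was taken over genes of like signal, so a part of brightness in these shares was not tested.

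The arrays of one genotype differed as much as the genotypes did. When each tested member was set against its own mean, the median over members was 0.01 and -0.07 in wildtype replicates 1 and 2, and 0.09 and -0.01 in deficient replicates 1 and 2. Deficient replicate 1 was thus the high array and wildtype replicate 2 the low one, while wildtype replicate 1 lay above deficient replicate 2, so the genotypes overlapped. Deficient replicate 1 was the highest of the 4 arrays for 30 members (66.7%), beside 24.6% of tested genes, and wildtype replicate 2 the lowest for 25 (55.6%), beside 23.8%. In 37 of the 45 members the larger of the within-genotype differences exceeded the difference between genotypes, as in 78.2% of all tested genes. Without deficient replicate 1 the median over tested members was 0.04 and 28 were above 0; without wildtype replicate 2 it was 0.03 with 31 above 0. Without wildtype replicate 1 it was 0.09, and without deficient replicate 2 it was 0.13, each with 41 above 0.

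**Figure D2:**
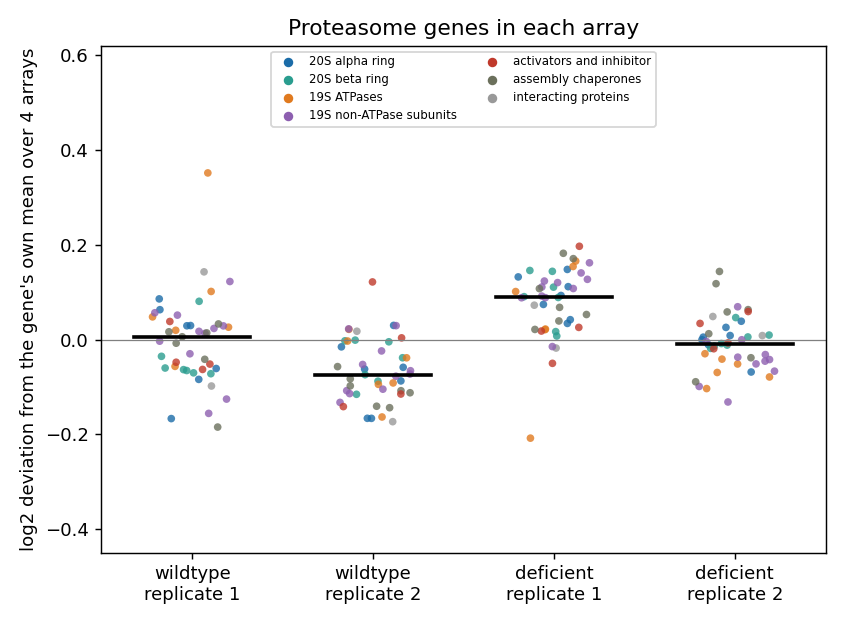
Log2 deviation of each tested member from its own mean over the 4 arrays, by array; points are genes coloured by role, with sideways scatter for visibility, and black lines are medians over all 45 tested members. Psma8 lies partly outside the range and is not drawn as a point. Deficient replicate 1 is highest (median 0.09) and wildtype replicate 2 lowest (-0.07), with the other arrays in between.

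The ratio of 3' to 5' control signal, a sign of RNA quality, was 1.17 and 1.30 in the wildtype and 1.14 and 1.25 in the deficient arrays for beta-actin, and 2.40 and 2.74 against 1.92 and 2.23 for the transferrin receptor. For Gapdh it was 0.778 and 0.808 against 0.746 and 0.778. For all 3 controls it was lowest in deficient replicate 1, where the members were highest, and highest in wildtype replicate 2, where they were lowest. B cell marker genes were also higher in the deficient arrays: all 13 tested of 14 named markers had a difference above 0, 6 of them passed, and the list's summed signal was 5289 and 7837 in wildtype replicates 1 and 2 against 17087 and 18669 in deficient replicates 1 and 2. Most of this sum came from the class II genes Cd74, H2-Aa, H2-Ab1 and H2-Eb1, which are not specific to B cells. H2-Aa read 1163 and 1763 against 3848 and 4255. Ms4a1, which is not a class II gene, read 167 and 228 against 838 and 1150. The remaining B cell marker, Pax5, lay below the filter and went the other way, with a difference of -0.88. It read 68.9 and 23.9 in wildtype against 11.3 and 21.9 in deficient arrays. The T cell markers Cd3d, Cd3e, Cd3g and Thy1 were bright in all arrays, the lowest at 2254, and Cd4 between 462 and 725; the summed signal of 9 T cell markers was 60580 and 70090 against 63781 and 68647, with none called. All 6 CD8 and cytotoxic markers were above 0 without passing, and summed to 5919 and 6123 against 7557 and 10008. Most of this sum was the cytotoxic marker Nkg7, at 4608 and 4932 against 6062 and 8154. Of the CD8 genes, Cd8b1 read 707 and 767 against 644 and 888, a difference of 0.04 with overlap. Cd8a was dim, at 49.6 and 48.1 against 79.4 and 88.9. The 8 dendritic and myeloid markers, 4 of them below the filter, summed to 400 and 325 against 315 and 318. The B cell sum and the CD8 and cytotoxic sum were highest in deficient replicate 2 and lowest in wildtype replicate 1. The T cell sum was highest in wildtype replicate 2. The part of any of these in the small proteasome differences was not tested. In such bulk RNA a smaller share of a cell type and less RNA per cell cannot be told apart.

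Promoter windows of 300 bases (250 before to 50 after the annotated start; RefSeq, GRCm38.p6) were found for 36 of the 44 proteasome genes. Psma8, Psmb1, Psmb2, Psmb7, Psmc3, Psmd3, Psmd7 and Psmg2 were not in the table. Proteasome genes are known for being induced together by the transcription factor NRF1 when the protease is inhibited, through elements that contain TGACNNNGC. The 3 windows shown are those of Psmg4, the member with the largest difference, Psmb6, a catalytic subunit whose window holds that motif, and Psmc6, an ATPase whose window holds both motifs in capitals, TGACNNNGC and CCGGAAG, a core recognised by ETS factors, each on either strand.

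Psmg4 promoter, chr13:34162714-34163013, plus strand: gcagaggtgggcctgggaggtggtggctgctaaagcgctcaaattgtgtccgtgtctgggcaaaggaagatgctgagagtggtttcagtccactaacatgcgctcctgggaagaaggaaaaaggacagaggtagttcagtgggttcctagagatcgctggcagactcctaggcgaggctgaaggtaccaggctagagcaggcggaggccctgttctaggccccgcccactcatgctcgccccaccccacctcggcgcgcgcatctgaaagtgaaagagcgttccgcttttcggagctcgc

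Psmb6 promoter, chr11:70525107-70525406, plus strand: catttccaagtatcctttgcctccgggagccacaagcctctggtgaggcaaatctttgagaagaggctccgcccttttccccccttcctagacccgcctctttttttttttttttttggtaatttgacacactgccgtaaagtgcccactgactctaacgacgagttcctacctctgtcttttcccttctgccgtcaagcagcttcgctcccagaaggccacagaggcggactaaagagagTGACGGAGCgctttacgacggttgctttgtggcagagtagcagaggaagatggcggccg

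Psmc6 promoter, chr14:45329574-45329873, plus strand: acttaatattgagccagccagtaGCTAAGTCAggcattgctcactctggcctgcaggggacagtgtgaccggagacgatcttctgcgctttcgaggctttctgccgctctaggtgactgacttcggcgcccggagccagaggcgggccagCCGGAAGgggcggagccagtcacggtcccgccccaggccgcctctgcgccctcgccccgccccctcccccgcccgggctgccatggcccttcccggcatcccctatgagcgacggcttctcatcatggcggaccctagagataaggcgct

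In these windows neither motif occurred in Psmg4. In Psmb6 TGACGGAGC began at position -9 from the start on the forward strand. In Psmc6 the match GCTAAGTCA, the motif on the reverse strand, began at -227, and CCGGAAG at -100. Across the 38 windows of the 36 genes, both strands searched, TGACNNNGC was found in 6 (15.8%), beside 12.4% of all 32851 promoter windows, in Psmb5, Psmb6, Psmc6, Psmd9, Psmd12 and Psme4. CCGGAAG was found in 15 (39.5%), beside 8.86% of all windows. GGGCGG, the core of the box bound by Sp factors, was found in 21 (55.3%) beside 35.7%, and CCAAT in 13 (34.2%) beside 37.4%. TGACNNNGC and CCGGAAG do not share a match with each other in the windows shown. The median difference between genotypes was 0.06 in the 6 tested genes with TGACNNNGC and 0.08 in the 29 without; for CCGGAAG it was 0.06 in 14 and 0.08 in 21. For CCAAT it was 0.12 in 12 and 0.07 in 23, and for GGGCGG 0.06 in 21 and 0.08 in 14. These matches are descriptions of the letters in the windows, and factor binding was not measured.

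The alpha ring genes all lay slightly above 0. Its 8 tested members ranged from 0.02 to 0.14 with a median of 0.11, and none passed. They include Psma8, which was near background. Its difference of 0.12 became -0.59 without wildtype replicate 1 and 0.83 without wildtype replicate 2. Psma3, whose product sits in the ring that gates the core, read 17331 and 17361 in wildtype and 19539 and 18189 in deficient arrays, a difference of 0.12 ± 0.08 (limma, adjusted p = 0.971). The deficient arrays of Psma3 were both higher, by 1.09-fold on average, with most of that in deficient replicate 1. Psma4, another ring subunit, read 12075 and 12666 against 13478 and 13032, likewise without overlap (0.10 ± 0.08). Psma2 and Psma7 had differences of 0.14 each, but the genotypes overlapped in both. Psma1, a ring subunit whose probe sets disagree, read 13664 and 11470 against 13254 and 13224, with wildtype replicate 2 alone apart. Its difference of 0.08 ± 0.10 became -0.05 without that array. Psma5 and Psma6, at 0.02 and 0.03, were the closest to 0; Psma6 read 16605 and 15585 against 16663 and 16269.

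Of the beta ring genes, 7 were tested, 6 above and 1 below 0, with a median of 0.08. The subunits with catalytic sites differed little. Psmb5, which carries the chymotrypsin-like site targeted by bortezomib, read 7604 and 7977 against 8503 and 7882, a difference of 0.07 ± 0.09 (limma, adjusted p = 0.982). Psmb6, which carries the caspase-like site, read 7578 and 7461 against 8765 and 7983. Both deficient arrays of Psmb6 were higher, by 0.15 ± 0.09 or 1.11-fold (limma, adjusted p = 0.964; unadjusted p = 0.123). Psmb7, which carries the trypsin-like site, read 4805 and 4314 against 4566 and 4500, a difference of -0.01 ± 0.10. The wildtype arrays of Psmb7 enclosed both deficient arrays. Among the subunits without a catalytic site, Psmb4 read 15150 and 15416 against 17095 and 15740 (0.10 ± 0.09), and Psmb3 had 0.15 ± 0.09. Psmb1, also without an active site, read 10293 and 10711 against 10858 and 11083 (0.06 ± 0.08). The genotypes did not overlap in any of these 3 genes, as in 15.9% of all tested genes with the deficient arrays higher. Their differences were no larger than 1.11-fold. In Psmb2, the other tested subunit without an active site, the genotypes overlapped. It read 5866 and 6148 against 6561 and 6118 (0.08 ± 0.09).

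The immunoproteasome subunits, which replace these catalytic subunits after interferon-gamma, had differences of 0.08 for Psmb8, 0.31 for Psmb9 and 0.12 for Psmb10. Psmb9, the counterpart of Psmb6, read 7449 and 7405 against 9166 and 9280, without overlap, and did not pass (limma, adjusted p = 0.488); the difference between its response and that of Psmb6 was not tested.

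The ATPase genes of the cap had the lowest median, 0.03, with 3 above and 3 below 0 and no gene without overlap between genotypes. Psmc4 had the lowest difference of all members, -0.26 ± 0.14 (limma, adjusted p = 0.953), and its signals were 5464 and 4014 in wildtype and 3702 and 4128 in deficient arrays. A single array, wildtype replicate 1, stood above the others; without it the difference was -0.04. Without wildtype replicate 2, leaving that high array as the only wildtype one, it was -0.48 (adjusted p = 0.0721). The other Psmc4 probe set above the filter gave 0.06, with signals of 3177 and 3003 against 3448 and 3017. Psmc2, also an ATPase, read 11635 and 11599 against 11604 and 10888, a difference of -0.05 ± 0.08 with deficient replicate 2 alone lower. Psmc6 had -0.01 ± 0.09 and read 12239 and 11527 against 12012 and 11596, with the deficient arrays between the wildtype ones.

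The non-ATPase subunits of the cap were 11 genes with differences from -0.01 to 0.13 and a median of 0.06; 10 were above 0. Deficient replicate 1 was the highest array for 10 of the 11. Psmd14, the deubiquitinase that removes ubiquitin chains, was the exception, at 12747 and 12800 against 12882 and 13656, and the only one of the 11 without overlap (0.05 ± 0.08; limma, adjusted p = 0.984). Psmd4, a receptor for ubiquitin chains, read 4192 and 4769 against 5104 and 4671, a difference of 0.13 ± 0.10 with overlap. Psmd1 and Psmd2, the large scaffold subunits of the cap's base, had -0.01 and 0.04. In Psmd1 the replicates numbered 1, at 4766 and 4770, were both higher than those numbered 2, at 4043 and 3994, so that the genotypes did not separate. The remaining members of the cap whose probe sets disagree were lid subunits. Psmd11 read 8897 and 7964 against 9128 and 8397 (0.06 ± 0.10), and Psmd13 read 2464 and 2262 against 2595 and 2427 (0.09 ± 0.10). Psmd6 read 7589 and 7334 against 8198 and 7340 (0.06 ± 0.09), and Psmd7 read 3909 and 3531 against 4335 and 3761 (0.12 ± 0.11). In all of them deficient replicate 1 was highest, wildtype replicate 2 lowest, and the genotypes overlapped.

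Among the activators and the inhibitor, 3 of 4 genes were above 0. Psme1, the PA28 alpha subunit, read 13942 and 14602 against 14828 and 14915, which did not overlap but differed by 0.06 ± 0.08 (limma, adjusted p = 0.984). Psme3, which forms the nuclear PA28 gamma activator, read 1771 and 1659 against 2102 and 1823. The deficient arrays of Psme3 were both higher, by 0.19 ± 0.11 or 1.14-fold (limma, adjusted p = 0.964, unadjusted p = 0.127). Its other probe set above the filter gave 0.05. Psme4, which encodes PA200, an activator known from spermatogenesis and DNA repair, read 2553 and 2881 against 2555 and 2611, a difference of -0.07 ± 0.10. Its 4 other probe sets above the filter gave -0.04 to 0.05. Psmf1, an inhibitor of the core particle in vitro, read 1049 and 942 against 1034 and 1065 (0.08 ± 0.12). Its other probe sets above the filter gave -0.23 and -0.21, and a set below the filter gave -1.08.

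The assembly chaperones held the members with the smallest p-values. All 7 were above 0, from 0.05 to 0.33 with a median of 0.08, and in 4 of them, Psmg4, Psmg2, Psmd5 and Psmd10, the genotypes did not overlap with the deficient arrays higher, beside 15.9% of all tested genes. Psmg4, which helps to build the alpha ring, read 1536 and 1584 in wildtype and 1986 and 1933 in deficient arrays, or 1560 ± 34.0 against 1960 ± 37.2 (SD, n = 2). The arrays of each genotype were close together and the deficient ones stood apart, by 0.33 ± 0.10 or 1.25-fold. Over all genes Psmg4 did not pass (limma, adjusted p = 0.642; unadjusted p = 0.0105), and over the alternatives its difference ran from 0.27 to 0.41 and its adjusted p from 0.514 to 0.931. Psmg2, another chaperone of the alpha ring, read 5211 and 4854 against 5624 and 5823. Both deficient arrays of Psmg2 were higher, by 0.19 ± 0.09 (limma, adjusted p = 0.953; unadjusted p = 0.0714); the gene's second bright probe set gave 0.08. Psmg1, the partner of Psmg2, had 0.08 ± 0.09, and Psmg3, the partner of Psmg4, 0.07 ± 0.11, both with overlap. Psmg3 read 1899 and 1774 against 2027 and 1830; its other, dim probe set above the filter gave 0.66, and the mean of both gave 0.36. The chaperones of the cap's base, Psmd5, Psmd9 and Psmd10, had 0.05, 0.08 and 0.12; Psmd9 read 955 and 881 against 1064 and 886. The pair that matches by spelling only, Psmc3ip and Psme3ip1, had 0.03 ± 0.14 and 0.08 ± 0.11, both with overlap; Psmc3ip read 977 and 782 against 873 and 915.

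**Figure D3:**
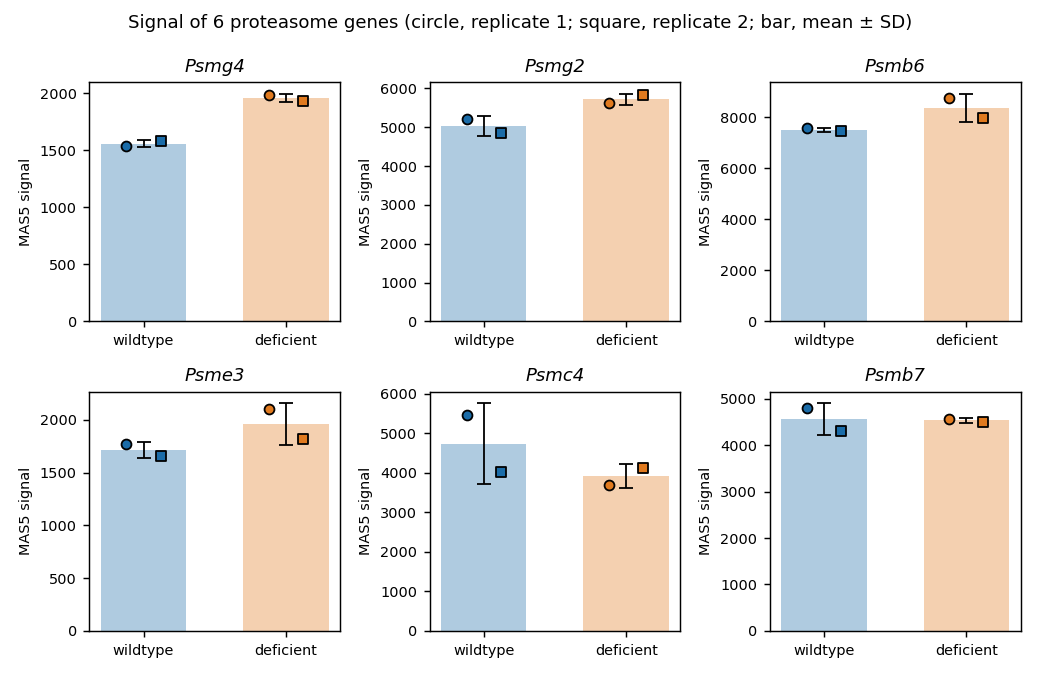
MAS5 signal of 6 members in wildtype and deficient arrays; bars are means of 2 arrays, error lines are SD, circles are replicate 1 and squares replicate 2. Psmg4 shows tight, separate pairs, Psmg2, Psmb6 and Psme3 separate but less tight pairs, Psmc4 a single high wildtype array at 5464, and Psmb7 overlapping pairs.

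Different probe sets of the same gene did not always give the same sign. The members have 99 probe sets, 84 above the filter, and 23 members have more than 1 above it. In 17 members these differed in sign or by more than 0.5. Of the 45 used, 39 were above 0. Of the other 15 with a mean signal of at least 1000, 12 were above 0 with a median of 0.07, and of the 24 dimmer ones 7 were above and 17 below 0, with a median of -0.14. This division at a signal of 1000 was chosen after the values were seen. Psma6, an alpha ring subunit, had 0.03 and 0.07 on its bright probe sets and -0.38 on a dim one (394 and 363 against 303 and 272). Psmd9, a chaperone of the cap's base, had 0.08 on the set used and -0.36 and -0.30 on dim ones. The dim set of Psmg3 went the other way, at 58.4 and 9.48 against 46.3 and 57.6, with wildtype replicate 2 alone low. With the mean of all probe sets, 27 of 45 members were above 0 and the median was 0.04.

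A high value in wildtype replicate 1 alone recurred in some probe sets, both bright and dim. It was 0.47 above the mean log2 of the other arrays in the Psmc4 set described above. In a second probe set of Psmd6, a lid subunit, it was 0.49 above, with signals of 6908 and 4787 against 4924 and 5072. In a second set of Psmb4 it was 0.39 above, at 16078 and 11199 against 12319 and 13306. In the set used for Psmb4 the same array lay at -0.08 from the others. In dim sets of Psma3 and Psmc6 the same array was 0.58 and 0.57 above the others. Without that array their differences of -0.23 and -0.32 became 0.10 and -0.06. The dim sets of Psma6 and Psmd9 named above stayed below 0 without it, at -0.32 for Psma6 and -0.17 and -0.52 for Psmd9. These examples were chosen after their values were seen.

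**Figure D4:**
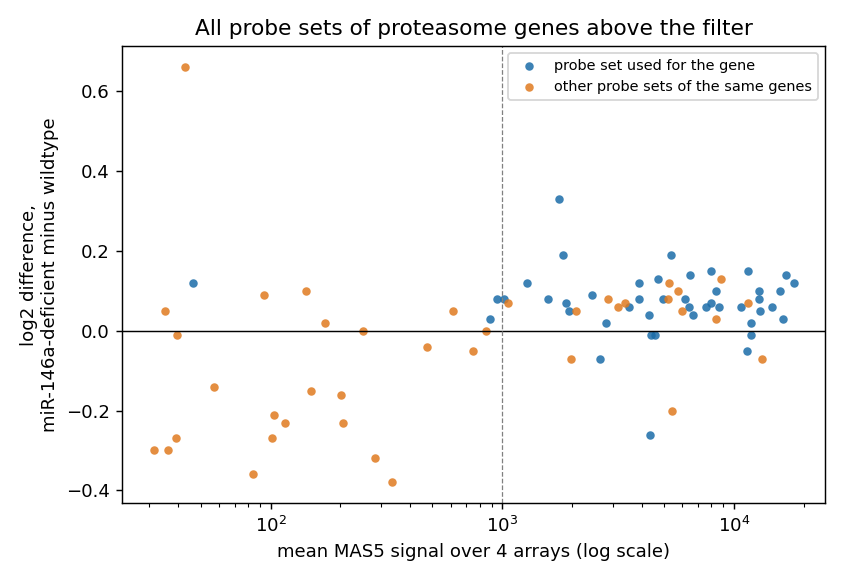
Log2 difference between genotypes against mean MAS5 signal (log axis) for the 84 probe sets of members above the filter; blue points are the sets used and orange points the other sets of the same genes, and the dashed line marks a signal of 1000. To the right of the line most points of either kind lie just above 0, and to its left 17 of 24 orange points lie below 0.

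In the lists of other genes that work with the proteasome, none passed limma's test over all genes. Of 16 listed cofactors and helpers, 12 had a probe set and were tested, 5 above and 7 below 0, with a median of -0.01. The smallest p-values among them were those of Ube3c, a ubiquitin ligase that acts on the proteasome, and Pomp, the maturation factor of the core. Ube3c read 813 and 776 against 643 and 636, a difference of -0.31 ± 0.12 with both deficient arrays lower (limma, adjusted p = 0.913; unadjusted p = 0.0333). Pomp read 11814 and 12074 against 13953 and 12369 (0.14 ± 0.09). Of 7 listed genes of the NRF1 pathway and that of the related factor NRF2, 6 were tested, 2 above and 4 below 0. Their median was -0.11. Nfe2l2, Keap1 and Hmox1 are listed for NRF2 rather than NRF1. Nfe2l1, which encodes NRF1, had -0.10 ± 0.11. Ngly1, the enzyme that removes glycans from NRF1, read 2593 and 3127 against 2287 and 2610 (-0.22 ± 0.12). Keap1, which restrains NRF2, read 1542 and 1469 against 1396 and 1368 (-0.12 ± 0.10). Keap1 and Nfe2l2, which encodes NRF2, were lower in the deficient arrays without overlap. They are 2 of the 6 tested, beside 17.7% of all tested genes, and neither of them is specific to NRF1. Of 6 listed genes of ubiquitin and its activation, Uba6 alone had a probe set with its symbol and had -0.02. Of 5 genes that load peptides made by the proteasome onto class I molecules, 4 were above 0; Tap2, of the peptide transporter, read 1555 and 1757 against 1877 and 1967 (0.22 ± 0.11). Tapbp, which tethers class I molecules to the transporter, read 3799 and 4131 against 4140 and 4505 (0.12 ± 0.10). These and B2m, 3 of the 5, were higher in the deficient arrays without overlap, beside 15.9% of all tested genes.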

How the data were processed

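Gene expression was measured in 4 samples, 2 wildtype and 2 miR-146a-deficient. The values are linear intensities that the authors deposited; MAS5 and Transcriptome Analysis Console are named, unversioned, per the submitters' processing notes. Each array's 2% trimmed mean is 500, so scaling had been done per array. Of 45101 probe sets, 64 controls were left out; 34945 have 1 gene symbol, 932 several and 9160 none, by the platform annotation given. Signals were transformed as log2(signal + 14.7), the 25th percentile of all values, which understates folds of dim genes. A gene was tested where its mean log2 reached 5.48, the 40th percentile of probe sets, which left 12819. The test was limma 3.58.1 in R 4.3.3 (lmFit, eBayes with an intensity trend), two-sided, Benjamini-Hochberg adjusted over all tested genes, threshold 0.05. It was tested on simulated data, where it found 0.9% of log2 changes of 0.25, 41.4% of 0.5 and 79.9% of 1. The simulated noise was normal, with a spread set by mean signal alone and no array effects. These rates are averages over all tested genes, bright and dim, and are not the power for the members. The number of arrays limits the precision.

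Members and lists were chosen with earlier results of these data known. Signals per array are given for the probe set with the highest signal in each role, the smallest p-values, catalytic subunits, activators and the inhibitor, and members whose probe sets differ, with further members named after their values were seen. Alternatives covered pseudocount, filter, normalization, probe set, variance prior, replicate block and each array left out. Promoters and the microRNA come from RefSeq, GRCm38.p6. Figures were drawn with matplotlib 3.10.9.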

Additional observations from a re-analysis of the deposited data

Results flagged for a closer look

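The probe set that carries the symbols of both Psme2 and Psme2b was given to neither gene and lies outside the comparison. It read 8082 and 7734 in the wildtype and 8903 and 9648 in the deficient arrays, a log2 difference of 0.23 (1.17-fold). It is listed because both deficient arrays lay above both wildtype arrays. It was not tested, and the annotation does not tell the genes apart.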

How the results depend on the processing

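No member passed under any of the 14 alternatives to the fit, nor at an adjusted p of 0.10 with all arrays or without Psmc3ip and Psme3ip1 (the last chosen after seeing the data); the smallest adjusted p of any named member was 0.0721. The median difference of members kept its sign in all of them and moved by more than the spread between replicates (SD 0.06) with median centring, to 0.16, where the median of all tested genes was 0.07. The count of all genes called, 23, was 2 without a filter, 50 with median centring, 14 with the mean of probe sets, 0 without an intensity trend (765 genes at an unadjusted p below 0.05), 14 with the replicate block, 40 at an adjusted p of 0.10, and 19 to 100 with 1 array left out, where a genotype has 1 array and is assumed to vary like the other. The replicate block left the median difference of members at 0.08 and 0 members called. Replicate numbers are not known to pair samples: same-numbered deviations correlated with r = 0.05 over all tested genes and 0.28 over members.

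Of 350 alternative values of the 25 named members, 28 changed sign, none of them past the threshold. With the mean of probe sets Psma3 had -0.05, Psma6 -0.18, Psmb1 -0.03, Psmc3ip -0.0089, Psmd11 -0.0057, Psmd13 -0.07, Psmd6 -0.07, Psmd9 -0.19 and Psmf1 -0.36. In this setting the other probe sets of each gene enter, many of them dim. That of Psmd6 was bright, at 6908 and 4787 against 4924 and 5072, with wildtype replicate 1 alone high. Psma6 had -0.02 with quantile normalization. With median centring Psmb7 had 0.08, Psmc2 0.04, Psmc6 0.07 and Psme4 0.01. With 1 array left out the ranges were -0.05 to 0.21 for Psma1, -0.01 to 0.08 for Psma6, -0.08 to 0.07 for Psmb7, -0.13 to 0.19 for Psmc3ip, -0.05 to 0.03 for Psmc6, -0.02 to 0.14 for Psmd11, -0.02 to 0.14 for Psmd6, -0.05 to 0.21 for Psmd9, -0.16 to 0.02 for Psme4 and -0.004 to 0.14 for Psmg3. The cause of these sign changes was not tested.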
